A study of Mus musculus with 9 samples.

Results

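The nuclear genes for the respiratory chain and ATP synthase were followed from stroma around prostate intraepithelial neoplasia (PIN) to stroma of invasive prostate cancer. Genes were chosen by symbol from the array's probe table. Their symbols begin with Nduf, Uqcr, Cox4 to Cox8 or Atp5, or are Sdhb, Sdhc, Sdhd or Cyc1. The choice was made with earlier results of these data known. The symbol rule gave 63 of the 8106 genes tested. They were 27 of complex I, 3 of complex II, 7 of complex III, 11 of complex IV and 15 of complex V. They include 4 Ndufaf genes, which encode assembly factors of complex I and not subunits, and Ndufs5-ps, a pseudogene. Sdha, the flavoprotein of complex II, fell outside the symbol rule and is given with the citric acid cycle.

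Oxidative phosphorylation takes place in the inner mitochondrial membrane. Complex I oxidizes NADH and complex II oxidizes succinate, both passing electrons to ubiquinone, from which complex III hands them to cytochrome c and complex IV to oxygen. Complexes I, III and IV pump protons, and complex V, the ATP synthase, uses the returning protons to make ATP. Most subunits are encoded in the nucleus and a small core in mitochondrial DNA, so the nuclear genes studied here cover only part of each machine. Oxidative muscle is known for high levels of these transcripts.

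The samples were male FVB mice hemizygous for CR2-TAg, which express SV40 large T antigen in prostatic neuroendocrine cells under control of cryptidin-2 gene elements and so develop neuroendocrine tumors. Stroma was laser microdissected, its RNA was amplified linearly in repeated rounds, and each sample, labeled with Cy5, was hybridized to spotted cDNA clones against a Cy3-labeled pool of the PIN samples. There were 6 arrays of invasive cancer stroma, from mice 24 weeks of age with lung and liver metastases, and 3 arrays of PIN stroma, from mice 10 weeks of age (replicates 2, 3 and 4), each of 1 mouse. A further PIN array of the study was not analysed here. Both groups carried the transgene, age and tumor stage changed together and cannot be told apart, and the invasive stroma was taken from a wider zone around the epithelium than the PIN stroma. A gene's value is its ratio to the pool on the log2 scale, averaged over its clones, and a difference is the mean of the invasive arrays minus the mean of the PIN arrays, with the standard error (SE) from limma. No dye swap was made, and the pool held RNA of the very PIN samples set against it.

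Between 17189 and 17206 clones had a value per array, and the standard deviation (SD) over clones was 0.69 to 0.81 for invasive and 0.54 to 0.57 for PIN stroma. PIN replicate 4 stood apart from the other PIN arrays, with a correlation over clones of 0.177 and 0.189 with them, where PIN replicates 2 and 3 had 0.672 with each other. These are ratios, so the level of one gene cannot be set against that of another, and in bulk stroma fewer cells of a type and less RNA per cell cannot be told apart.

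Of the 63 genes, 56 were lower in invasive than in PIN stroma by their difference (88.9%), whereas 48.0% of all genes tested had a negative difference. The median difference was -0.36 on the log2 scale, a 1.28-fold lower level, beside 0.02 over all genes tested. The falls were small: the differences ran from -0.98 to 0.55, none reached 2-fold, and 48 of the 63 genes had a 95% interval that lay wholly above -1. With limma and a cutoff of 0.15 on the adjusted p (the rate of false discoveries accepted in the study), 4 genes fell, namely Cox6c, Ndufv1, Ndufs7 and Uqcr11, and none rose. That is 6.35% of the genes, against a background of 1.89% of all genes tested for falls and 3.75% for rises. None passed at 0.05.

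Without adjustment, limma's p was under 0.05 for 16 genes that were lower (25.4%, background 5.80%) and for 1 that was higher, Cox6b2 (background 9.18%). All invasive arrays lay below all PIN arrays for 10 genes (15.9%, background 2.99%) and above them for none (background 4.86%). The genes were read from the same 9 arrays and are not independent of each other, and no test of the list as a whole was made. The number that fell depended on single arrays. Leaving out invasive replicate 3 raised it to 14, and leaving out invasive replicate 5 or 6 lowered it to 2, invasive replicate 2 or 4 to 1, and PIN replicate 2 or 3 to 0. The share of all genes tested that fell moved with it, to 3.63% without invasive replicate 3, 0.111% without PIN replicate 2 and 0.296% without PIN replicate 3. Without invasive replicates 2, 4, 5 and 6 that share was 0.777%, 0.703%, 0.740% and 0.938%. Cox6c lost its call without PIN replicate 2 (limma adjusted p = 0.249) or PIN replicate 3 (limma adjusted p = 0.166), and also after quantile normalization (limma adjusted p = 0.203). The number with a negative difference stayed between 54 and 56 when any array was left out.

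**Figure D1:**
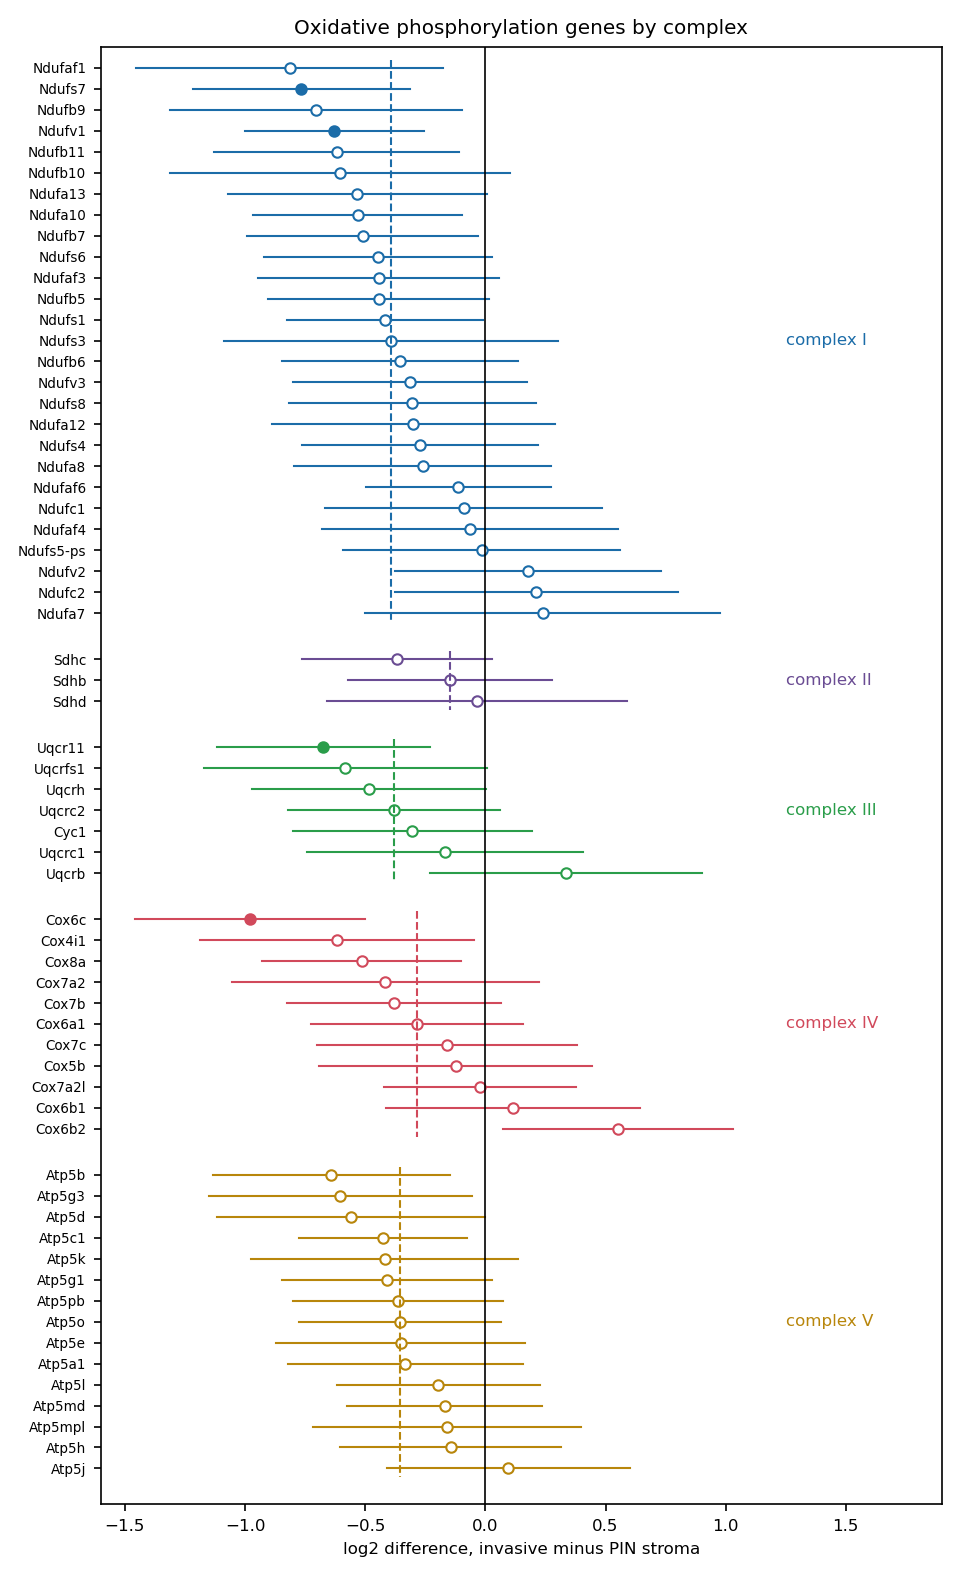
Log2 difference, invasive minus PIN stroma (x axis), of each of the 63 genes, sorted within complex. Points are limma estimates from 6 invasive and 3 PIN arrays, bars are 95% intervals, filled points are the 4 genes with an adjusted p under 0.15, and dashed lines are the median of each complex. Of the points, 56 lie left of 0, and all but 17 of the bars cross it.

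By array, the median over the 63 genes was -0.34, -0.43, 0.04, -0.21, -0.44 and -0.59 on invasive replicates 1 to 6 and 0.11, -0.09 and 0.01 on PIN replicates 2 to 4. The groups overlapped only through invasive replicate 3, which had the highest value of the invasive arrays in 39 of the 63 genes. On that array 26 genes were below 0, against 50 to 55 on the other invasive arrays and 20, 39 and 30 on the PIN arrays. Invasive replicates 6 and 5 most often had the lowest invasive value, in 23 and 18 genes. In invasive stroma the array medians averaged -0.33 ± 0.22 (SD, n = 6), and those of PIN stroma averaged 0.01 ± 0.10 (SD, n = 3).

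**Figure D2:**
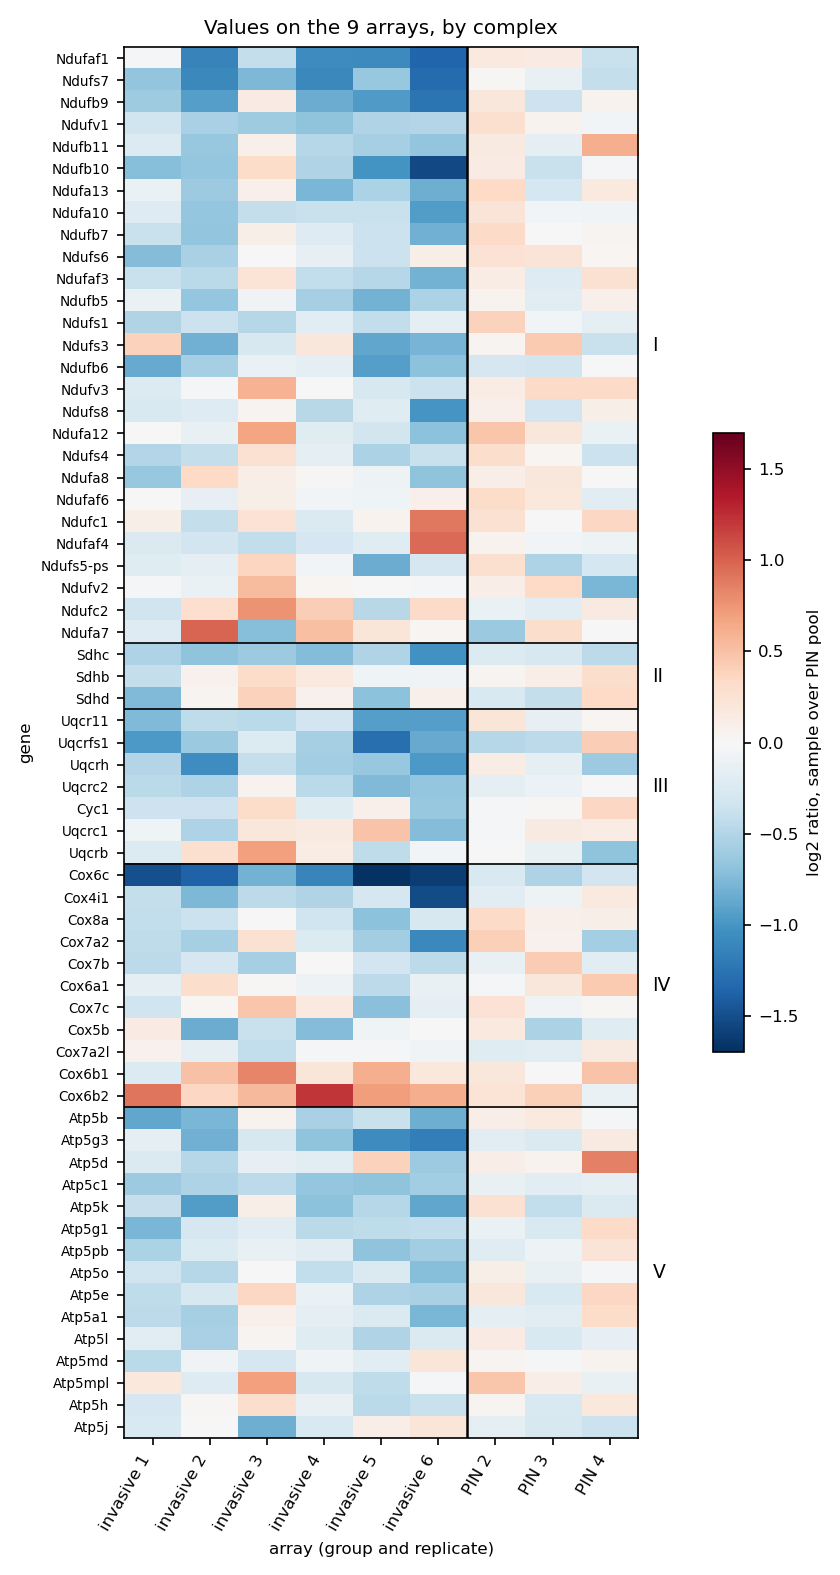
Log2 ratio of sample over the PIN pool (color) for each of the 63 genes (rows, by complex) on the 6 invasive and 3 PIN arrays (columns). Blue cells, below the pool, fill most of the invasive columns apart from invasive replicate 3, on which 26 of 63 genes were below 0, and the blue is deepest for Cox6c.

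Complex I, which takes electrons from NADH, had 27 genes, of which 24 were lower, 8 of them at an unadjusted p under 0.05, with a median difference of -0.39. Ndufv1 and Ndufs7, which lie at the entry and the exit of its electron path, fell. Ndufv1 carries the flavin that oxidizes NADH. Its ratios ran from -0.69 through a median of -0.53 to -0.34 on the invasive arrays and were 0.27, 0.06 and -0.05 on the PIN arrays. Every invasive array was thus below every PIN array, with a difference of -0.63 (SE 0.17, limma adjusted p = 0.103). Ndufs7 holds the last iron-sulfur cluster before ubiquinone. Its ratios ran from -1.31 through -0.93 to -0.65 on the invasive arrays and were 0.03, -0.12 and -0.40 on the PIN arrays. These groups did not overlap either, and the difference was -0.77 (SE 0.21, limma adjusted p = 0.103). Both calls ended without invasive replicate 2 or 4 or without PIN replicate 2 or 3, that of Ndufv1 also without invasive replicate 5 and that of Ndufs7 without invasive replicate 6.

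Of the other genes of the NADH-oxidizing arm, Ndufs1, its largest iron-sulfur subunit, had invasive ratios from -0.51 to -0.17 and PIN ratios of 0.39, -0.04 and -0.17. The groups only just separated, and the difference of -0.42 did not pass (SE 0.19, limma adjusted p = 0.322). Of the 8 genes of this arm (Ndufv1, Ndufv2, Ndufv3, Ndufs1, Ndufs4, Ndufs6, Ndufa7 and Ndufa12), 6 were lower, with a median of -0.31. The exceptions were Ndufv2, which binds an iron-sulfur cluster beside Ndufv1, at 0.18, and the accessory subunit Ndufa7, at 0.24. Ndufa7 varied widely between invasive arrays, from -0.72 to 0.99 (SE of the difference 0.34, limma adjusted p = 0.818). The ubiquinone-reducing part (Ndufs3, Ndufs7 and Ndufs8) had a median of -0.39, with all 3 genes lower.

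The distal part of the membrane arm, where accessory subunits surround mitochondrially encoded proton pumps, had 6 genes here: Ndufb5, Ndufb6, Ndufb7, Ndufb9, Ndufb10 and Ndufb11. All 6 were lower, between -0.70 and -0.35, with a median of -0.56, the lowest of the complex I parts. None passed adjustment, and 3 had an unadjusted p under 0.05. Ndufb9 had the largest difference, -0.70 (SE 0.28, limma adjusted p = 0.247). The proximal part (Ndufa8, Ndufa10, Ndufa13, Ndufc1 and Ndufc2) had a median of -0.26 with 4 of 5 genes lower, the exception being Ndufc2 at 0.21. Within it Ndufa10 separated the groups, with invasive ratios from -0.94 through -0.39 to -0.22 and PIN ratios of 0.22, -0.05 and -0.06 (difference -0.53, SE 0.20, limma adjusted p = 0.226). The differences between parts of the complex were not tested.

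Of the assembly factors, Ndufaf1, which helps build the membrane arm, had the largest difference of complex I, -0.81 (SE 0.29), but did not pass (limma adjusted p = 0.202). Its invasive ratios ran from -1.35 through -1.07 to -0.02 and its PIN ratios were 0.17, 0.13 and -0.38, so the groups overlapped through invasive replicate 1. Ndufaf3, Ndufaf4 and Ndufaf6 stood at -0.44, -0.06 and -0.11, and the pseudogene Ndufs5-ps at -0.02. Leaving out these 5 genes kept the median over the remaining 58 genes at -0.36.

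Complex II, the succinate dehydrogenase that also serves the citric acid cycle, was represented by 3 genes, with a median of -0.15. Sdhc, a membrane anchor, had ratios from -1.03 through -0.65 to -0.51 on the invasive arrays and -0.23, -0.28 and -0.44 on the PIN arrays. The groups did not overlap, although its PIN arrays were also below the pool, and the difference of -0.37 did not pass (SE 0.18, limma adjusted p = 0.364). Sdhb, the iron-sulfur subunit, stood at -0.15 (95% interval -0.57 to 0.28) and Sdhd, the other anchor, at -0.04 (95% interval -0.66 to 0.59).

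Complex III, which passes electrons from ubiquinol to cytochrome c, had 6 of 7 genes lower and a median of -0.38. Uqcr11, its smallest subunit, fell. Its ratios ran from -0.94 through -0.61 to -0.33 on the invasive arrays and were 0.21, -0.14 and 0.03 on the PIN arrays. No invasive array reached a PIN array, and the difference was -0.67 (SE 0.20, limma adjusted p = 0.133). The call ended when any array other than invasive replicate 3 was left out. The subunits that carry the electrons, the Rieske protein Uqcrfs1 and cytochrome c1 (Cyc1), had differences of -0.58 (SE 0.27, limma adjusted p = 0.337) and -0.30 (SE 0.23). The core proteins Uqcrc2 and Uqcrc1 had differences of -0.38 and -0.17, and Uqcrh, the hinge protein, of -0.48. Uqcrb, a ubiquinone-binding protein, was the exception at 0.33 (SE 0.26, limma adjusted p = 0.612). Both of its clones were positive, at 0.23 and 0.44, and its invasive ratios, from -0.43 to 0.70, overlapped the PIN ratios of 0.001, -0.12 and -0.69.

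Complex IV, cytochrome c oxidase, held both the largest fall and the largest positive difference of the 63 genes, and its median over 11 genes was -0.28. Cox6c, a small nuclear-encoded subunit, fell 1.97-fold. Its ratios ran from -1.68 through -1.44 to -0.80 on the invasive arrays and were -0.26, -0.52 and -0.33 on the PIN arrays. All 9 arrays were thus below the pool, the invasive arrays furthest, with a difference of -0.98 (SE 0.22, limma adjusted p = 0.0569). Cox6b2, known as the testis form of a subunit that faces cytochrome c, had ratios from 0.36 through 0.67 to 1.21 on the invasive arrays and of 0.23, 0.40 and -0.11 on the PIN arrays. The groups overlapped at a single pair of arrays, and the difference of 0.55 did not pass (SE 0.22, limma adjusted p = 0.250). Its widely expressed counterpart Cox6b1 stood at 0.12 (SE 0.24, limma adjusted p = 0.885). These related cDNAs can share hybridization, so the values of isoforms are uncertain.

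Cox4i1, the common form of subunit IV, was read by 5 clones, all of them lower, between -0.75 and -0.47. Its averaged ratios ran from -1.51 through -0.48 to -0.28 on the invasive arrays and were -0.18, -0.09 and 0.16 on the PIN arrays. The groups did not overlap, but invasive replicate 6 was lowest, at -1.51 with the next array at -0.76, and the difference of -0.62 did not pass (SE 0.26, limma adjusted p = 0.290). Cox8a, the common form of subunit VIII, separated the groups as well. Its invasive ratios ran from -0.70 through -0.35 to 0.01 and its PIN ratios were 0.32, 0.08 and 0.09 (difference -0.51, SE 0.19, limma adjusted p = 0.217). The remaining genes of the complex were closer to 0. Cox7a2 had a difference of -0.42, Cox7b of -0.38, Cox6a1 of -0.28, Cox7c of -0.16, Cox5b of -0.12 and Cox7a2l, a factor in joining complexes III and IV, of -0.02, and none of the 6 had an unadjusted p under 0.05.

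**Figure D3:**
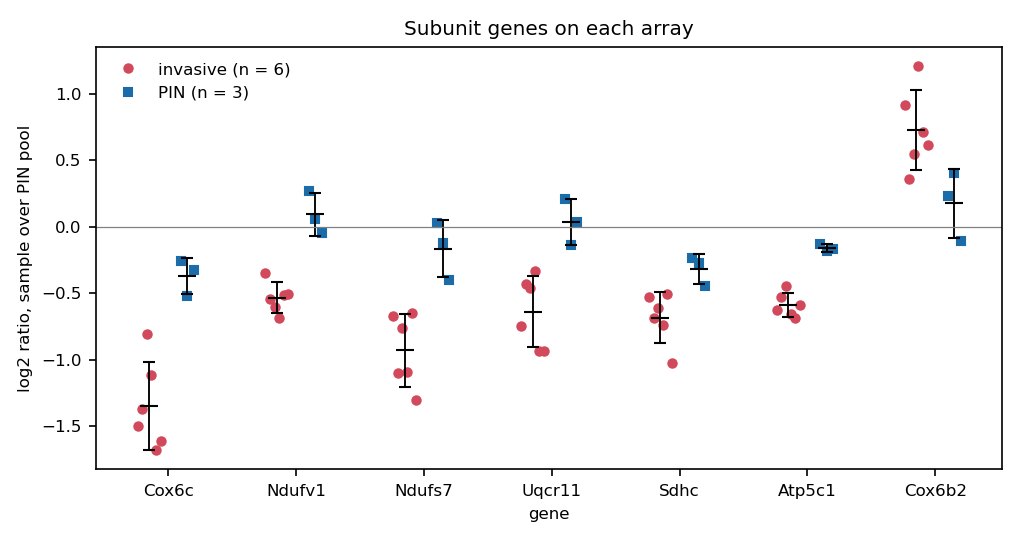
Log2 ratio of sample over the PIN pool (y axis) on each of 6 invasive arrays (circles) and 3 PIN arrays (squares) for the 4 genes that fell and for Sdhc, Atp5c1 and Cox6b2. Horizontal bars are group means and whiskers 1 SD. The groups are apart for the first 6 genes, while for Cox6b2 an invasive array at 0.36 lies below a PIN array at 0.40.

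Complex V, the ATP synthase, had 14 of 15 genes lower and a median of -0.36, and none passed adjustment with limma. The catalytic head and its rotor (Atp5a1, Atp5b, Atp5c1, Atp5d and Atp5e) were all lower, between -0.64 and -0.33. Atp5b, the catalytic beta subunit, had the smallest p of the complex. It ran from -0.88 through -0.67 to 0.06 on the invasive arrays and was 0.11, 0.16 and -0.03 on the PIN arrays. Invasive replicate 3 alone entered the PIN range, and the difference was -0.64 (SE 0.23, limma adjusted p = 0.191), with all 4 clones lower. Atp5c1, the gamma subunit at the center of the rotor, was the member of this complex whose groups did not overlap. Its invasive ratios ran from -0.69 through -0.61 to -0.44 and its PIN ratios were -0.13, -0.18 and -0.17. The spread was small, 0.09 (SD, n = 6) and 0.03 (SD, n = 3), and the difference was -0.43 (SE 0.16, limma adjusted p = 0.226). The methods' per-gene test, which does not share the spread among genes, did call Atp5c1, whether variances were taken as equal or not.

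The ring of c subunits, which turns as protons pass, was represented by Atp5g1 and Atp5g3, genes that encode the same mature protein. Atp5g3 had a difference of -0.60 (SE 0.25, limma adjusted p = 0.278) and Atp5g1 of -0.41 (SE 0.20, limma adjusted p = 0.364). The clones of Atp5g1 disagreed, from -0.80 to 0.10, the widest range of any gene here. In the peripheral stalk, which holds the head still, Atp5pb and Atp5o stood at -0.36 each and Atp5h at -0.14, whereas Atp5j was at 0.10 (SE 0.23, limma adjusted p = 0.898). The small membrane subunits Atp5k, Atp5l, Atp5md and Atp5mpl lay between -0.42 and -0.16.

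The direction did not rest on the averaging of clones. Of 99 tested clones of these genes, 87 had a negative difference. In the 23 genes read by several clones, all clones had the same sign in 19. Over clones only 1 fell, that of Cox6c (limma adjusted p = 0.0999), beside 0.639% of all 17207 clones tested. The single clones of Ndufs7, Ndufv1 and Uqcr11 had adjusted p of 0.178, 0.194 and 0.228 by limma in that larger family. The remaining 40 genes were read by 1 clone each, among them all 4 that fell.

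Promoters of the respiratory genes were searched for motifs of factors known to act on respiratory genes, using RefSeq windows of 250 bases before to 50 bases after the start (GRCm38.p6). They were found for 51 of the 63 genes, in 55 windows, and not for Atp5a1, Atp5mpl, Cox4i1, Cox6c, Cyc1, Ndufaf6, Ndufb9, Ndufs1, Ndufs5-ps, Sdhc, Uqcrb and Uqcrc2. Both strands were read. The NRF-1 core GCGCATGC was in 14.5% of these windows and 5.03% of the 8457 windows of all genes tested. The ETS core CCGGAAG, bound by GABPA, was in 32.7% and 16.6%. The YY1 core AAGATGGC was in 10.9% and 4.25%, and the ERR core TCAAGGTCA in 3.64% and 0.225%. Over all 32851 RefSeq windows the shares were 2.71%, 8.86%, 2.75% and 0.423%. For the respiratory genes the shares stand for 8, 18, 6 and 2 of the 55 windows, in the same order, and they were not tested. All of these are counts of letters, not of bound sites. The windows of the 3 genes that fell and had one are printed here on the gene's strand, with matches in capitals. They lie at chr10:80249199-80249498 on the plus strand for Ndufs7, chr19:4012706-4013005 on the minus strand for Ndufv1 and chr10:80406772-80407071 on the minus strand for Uqcr11.
Ndufs7: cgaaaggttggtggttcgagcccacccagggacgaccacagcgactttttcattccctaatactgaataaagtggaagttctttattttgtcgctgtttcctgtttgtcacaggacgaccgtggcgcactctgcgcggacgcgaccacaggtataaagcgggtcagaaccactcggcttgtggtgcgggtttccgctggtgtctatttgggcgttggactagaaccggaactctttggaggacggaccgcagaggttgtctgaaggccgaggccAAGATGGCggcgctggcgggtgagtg
Ndufv1: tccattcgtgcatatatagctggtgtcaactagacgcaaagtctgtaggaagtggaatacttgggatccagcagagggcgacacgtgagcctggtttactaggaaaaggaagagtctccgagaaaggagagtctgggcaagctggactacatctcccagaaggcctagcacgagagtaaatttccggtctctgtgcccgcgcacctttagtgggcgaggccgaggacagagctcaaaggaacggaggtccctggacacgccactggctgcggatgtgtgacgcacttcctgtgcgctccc
Uqcr11: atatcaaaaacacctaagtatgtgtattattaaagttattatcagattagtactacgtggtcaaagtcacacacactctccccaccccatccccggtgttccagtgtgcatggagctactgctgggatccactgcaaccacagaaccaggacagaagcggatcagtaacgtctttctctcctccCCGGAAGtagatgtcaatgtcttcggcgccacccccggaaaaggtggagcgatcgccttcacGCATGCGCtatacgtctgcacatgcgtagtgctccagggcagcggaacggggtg
Ndufs7 held the YY1 core just after its start, Uqcr11 held the ETS core and, on the other strand close to the start, the NRF-1 core, and Ndufv1 held none of these letters. The matches did not overlap each other.

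Genes that build or feed the respiratory chain were counted next. Of 22 other assembly factors tested, none passed either way, with 19 lower and a median of -0.16, and 1 (Oxa1l, an inner membrane insertase, at -0.62, limma adjusted p = 0.190) had an unadjusted p under 0.05. Of 15 carriers and coupling proteins none passed, with 9 lower, a median of -0.11 and 1 with an unadjusted p under 0.05. Cytochrome c (Cycs) stood at 0.23. The ADP/ATP carrier Slc25a4, a form typical of muscle, stood at -0.46 (limma adjusted p = 0.472) and its relative Slc25a5 at 0.29. Of the same list Ucp3, Vdac2 and Vdac3 had differences of 0.45, 0.48 and 0.41. None of the mitochondrially encoded subunits was tested. Of 19 regulators of mitochondrial biogenesis 1 fell, the coactivator Ppargc1b, with a difference of -1.0 (SE 0.30, limma adjusted p = 0.134), with a median of -0.09 over the list. Its invasive ratios ran from -1.73 through -1.0 to -0.69 and its PIN ratios were 0.44, 0.15 and -0.85, so PIN replicate 4 lay within the invasive range. Its relative Ppargc1a had a difference of 0.46 that did not pass (limma adjusted p = 0.304). Twnk, at -0.72, and Esrra, at -0.51, did not pass either (limma adjusted p = 0.250 and 0.309). Of the 19 regulators 12 were lower, 3 of them with an unadjusted p under 0.05, and 1 was higher with such a p.

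Among 18 citric acid cycle genes, 15 were lower, with a median of -0.13. Suclg1, of succinyl-CoA ligase, fell, with ratios from -1.51 through -1.01 to -0.87 on the invasive arrays and of -0.21, -0.20 and -0.32 on the PIN arrays. The groups were well apart, with a difference of -0.87 (SE 0.20, limma adjusted p = 0.0565). Idh2, the mitochondrial NADP-dependent isocitrate dehydrogenase, rose. Its ratios ran from 0.23 through 0.58 to 1.21 on the invasive arrays and were -0.28, -0.26 and -0.14 on the PIN arrays (difference 0.86, SE 0.22, limma adjusted p = 0.0886). Sdha stood at -0.21 (limma adjusted p = 0.708).

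Among 16 glycolysis genes the median was 0.21, with 5 lower. The lactate dehydrogenase subunits moved in opposite directions. Ldha, the form that predominates in glycolytic tissue, rose 2.62-fold, with ratios from 0.33 through 1.37 to 1.704 on the invasive arrays and of -0.33, -0.37 and 0.17 on the PIN arrays. Every invasive array was above every PIN array, by a difference of 1.39 (SE 0.28, limma adjusted p = 0.0458). Ldhb, the form of oxidative tissue, fell, with ratios from -1.43 through -0.77 to -0.76 on the invasive arrays and of 0.03, -0.14 and -0.39 on the PIN arrays (difference -0.81, SE 0.22, limma adjusted p = 0.107). Ppargc1b, Suclg1, Idh2, Ldha and Ldhb each lost the call without PIN replicate 2 and without PIN replicate 3. Of the 9 arrays left out in turn, the call ended in 2 cases for Suclg1 and Ldha, in 3 for Idh2 (also without invasive replicate 5), in 5 for Ldhb (also without invasive replicates 2, 4 and 5) and in 6 for Ppargc1b (also without invasive replicates 2, 4, 5 and 6).

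Markers of other cells moved between the same groups. Of 8 smooth muscle markers tested, 5 fell, with a list median of -1.78. The list's array medians were -1.08, -3.51, -0.44, -1.73, -1.78 and -3.24 on invasive replicates 1 to 6 and 0.19, 0.31 and -0.60 on PIN replicates 2 to 4. Myl9, a myosin light chain, fell by 2.23 on the log2 scale (limma adjusted p = 0.101), and Tpm1, a tropomyosin, by 1.63 (limma adjusted p = 0.130). Smtn, Cald1 and Cnn1 did not pass, with differences of -1.93, -0.59 and 0.065. Of the 9 arrays left out in turn, 5 ended the call of Myl9 (invasive replicates 2, 4 and 5 and PIN replicates 2 and 3) and 6 that of Tpm1 (the same and invasive replicate 6). Of 6 skeletal muscle markers tested, 3 fell (Tnnt1, Eno3 and Pygm), with a list median of -0.89. The list was split, as Actn3 had a difference of -0.35, Mylpf of 0.17 and Actn2 of 0.08, and none of these passed. Array medians of the list ran from -1.14 to -0.31 in invasive and from -0.30 to 0.30 in PIN stroma. Eno3, muscle enolase, fell by 1.84 and Pygm, muscle glycogen phosphorylase, by 1.43 on the log2 scale (limma adjusted p = 0.0585 for both), and both lost the call without PIN replicate 2 or 3. Muscle cells are rich in respiratory transcripts, and the part of these markers in the differences of the respiratory genes was not tested.

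All 5 macrophage markers tested rose, with a list median of 2.18, as did 5 of 11 fibroblast markers (1.14), 2 of 7 endothelial markers (1.08), 2 of 7 adipocyte markers (0.61) and 1 of 5 neuroendocrine tumor markers (1.08). The markers of smallest p were Fcgr3 (difference 2.77, limma adjusted p = 0.00409) and Lyz2 (3.21, 0.0228) of macrophages, and the collagens Col3a1 (1.55, 0.0431) and Col1a2 (1.55, 0.0458) of fibroblasts. For endothelium they were Esam (1.53, limma adjusted p = 0.0230) and Emcn (1.86, 0.0431), and for adipocytes Fabp4 (2.89, 0.00871) and Lpl (2.43, 0.0431). The rest of the adipocyte list did not pass, with Adipoq at 1.05, Retn at 0.61, Lep at 0.18, Pparg at 0.10 and Plin1 at -0.42. Of the neuroendocrine list Foxa2 rose (2.50, limma adjusted p = 0.0871), and Uchl1 did not pass (1.08, 0.182). Leaving out PIN replicate 2 ended the calls of Col3a1, Col1a2, Emcn, Lpl and Foxa2, leaving out PIN replicate 3 those of Emcn and Foxa2, and leaving out invasive replicate 4 or 5 that of Foxa2. Invasive replicate 3 had the smallest macrophage rise, 0.61 against 2.43 to 2.80 on the other invasive arrays, a fibroblast median of 0.32 against 1.21 to 1.48, and the highest neuroendocrine median, 2.12. It was also the array with the highest median of the respiratory genes. None of 8 epithelial markers passed (median -0.46, none with an unadjusted p under 0.05). Of the 8, 6 were lower. Cldn3 and Spint2 had the smallest p of that list, with differences of -0.72 and -0.51, whereas Spint1 and Epcam were at 0.20 and 0.40. The array median of the whole epithelial list was 0.59 on PIN replicate 4, against -1.18 and -0.98 on the other PIN arrays. The part of these cell types in the result was not tested.

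**Figure D4:**
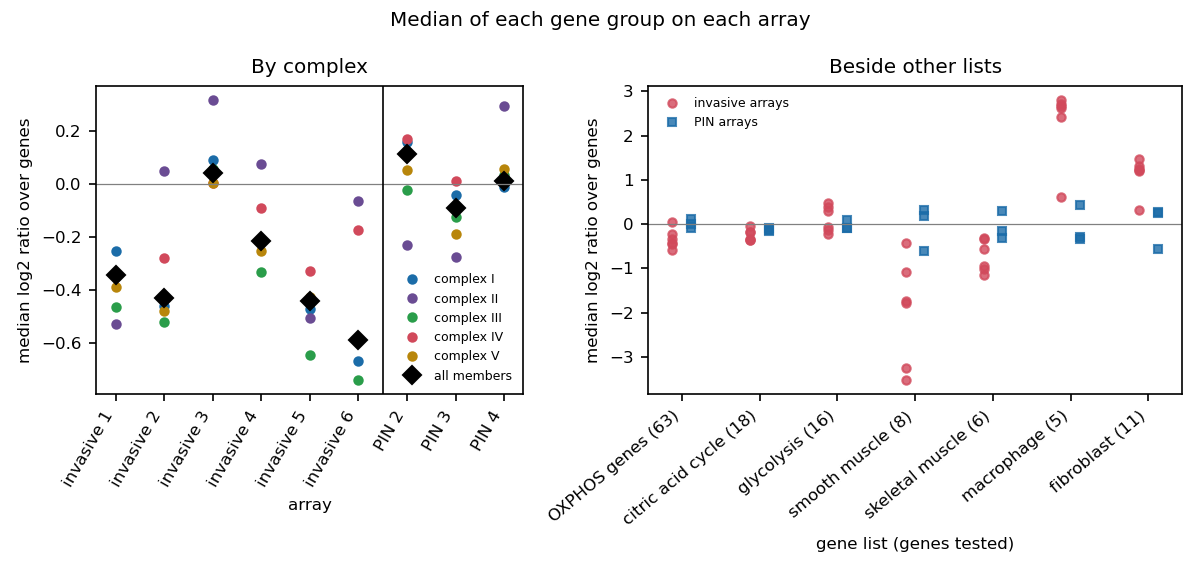
Left, median log2 ratio over the genes of each complex (colored points) and over all 63 genes (black diamonds) on each array. Right, median over each gene list on each invasive (circles) and PIN (squares) array, with the number of genes tested in parentheses. The respiratory medians span -0.59 to 0.04 on invasive arrays, a far narrower range than the -3.51 to -0.44 of smooth muscle markers.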

How the data were processed

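The authors extracted RNA from microdissected stroma, amplified it, scanned the arrays and applied lowess normalization within print-tip groups, subtracting no background. What they deposited are log2 ratios, Cy5 sample over Cy3 pool. Spot brightness was not used here, and dim clones were not filtered out. Array medians of the deposited log2 ratios lay between -0.0035 and 0.008. Of 17664 rows, 457 held no value, and 12563 had 1 gene symbol in the probe table, 412 several and 4689 none. Only rows with 1 symbol entered the fit over genes, averaged per array.

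A gene needed a value on 4 or more invasive and 2 or more PIN arrays. Fits used limma 3.58.1 (R 4.3.3; lmFit, then eBayes; two-sided), with Benjamini-Hochberg adjustment over all 8106 genes, or over all 17207 clones. The script was tested on simulated data. Labels name no batch. The members and lists were chosen with earlier results of these data known. Members described singly are those past the threshold, the extremes and the smallest p of each complex, isoform pairs and those whose groups did not overlap. Of each list, up to 3 genes past the threshold are described, and of each marker list the 2 of smallest p, and the other genes given by a value were chosen after their values were seen. Alternatives included the t-test of the methods, with equal or unequal variance. The study ran that test per clone, and here it was also applied to the gene averages. Other alternatives were robust fitting, array weights, centering, scaling, quantile normalization, 2 filters and clone medians. The rest were invasive arrays against 0, an adjusted p under 0.05, a replicate block and leaving out each array. A comparison of isoform proteins was not run. Python 3.11.15 with pandas 2.3.3, numpy 2.4.6 and matplotlib 3.10.9 made the tables and figures.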

Additional observations from a re-analysis of the deposited data

Results flagged for a closer look

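In 62 sets of 6 invasive values (the genes described singly, the lists and the complexes), 4 had 1 array whose gap to the next, as a share of the range, passed Dixon's 95% limit, and chance alone marks about 1 in 20 such sets. In each of the 4 it was invasive replicate 3. Its macrophage marker median was 0.61, its fibroblast marker median 0.32, its endothelial marker median 0.34 and its Lyz2 ratio 1.06, all lower than on the other invasive arrays. None of the 22 respiratory genes described singly by the rule above passed that limit. The other respiratory genes given by a value were not checked.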

How the results depend on the processing

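Under the 22 alternatives 51 to 56 of the 63 genes were lower. Of the 22 genes described singly by the rule above, which leaves out other genes given by a value, 19 kept their sign in all alternatives. Both t-tests, robust fitting, both filters and the cutoff of 0.05 left the differences of these genes unchanged. In those settings the calls could move and the signs could not, so the steadiness of the 2 cannot be compared. The number of genes that fell, 4, changed with the setting, and so did the share of all genes tested that fell. That share is given here as background. The number became 2 with the methods' equal-variance test (Ndufv1 and Atp5c1, background 0.222%) and 3 with unequal variance (Cox6c, Uqcr11 and Atp5c1, background 0.802%). With array weights 21 fell (background 7.60%) and 1 rose, Cox6b2, while 1011 of all genes rose. After quantile normalization 2 fell (background 1.39%). With the invasive arrays against 0, 33 fell (background 14.6%) and 2 rose, Cox6b1 and Cox6b2, while 1415 of all genes rose. At an adjusted p under 0.05 the number was 0 (background 0.234%). Leaving out each array gave 0 to 14 (background 0.111% to 3.63%). Of clones, 1 fell, against 19 with array weights, 0 after scaling, quantile normalization or at 0.05, 49 (1 rose) against 0, and 0 to 12 without each array. The share over all clones, 0.639% in the fit described above, is not given for the alternatives, so these clone counts lack a background. Over the same alternatives the genes called lower among all 8106, 153, ranged from 9 without PIN replicate 2 to 1180 against 0. The cause of these shifts was not tested, beyond fewer arrays where one was left out.

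Same-numbered arrays did not deviate together (r of -0.085, -0.099 and -0.018 for numbers 2 to 4), so the numbers share only a name. With the replicate block 0 genes and 0 clones fell, 51 of 63 genes were lower with a median of -0.22, and 13 of all genes fell.

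Atp5c1, not called by limma, had an adjusted p of 0.114 and 0.0681 in the methods' test on gene averages, with equal and unequal variance. There Cox6c had 0.177 and 0.107, Ndufv1 0.114 and 0.201, Ndufs7 0.198 and 0.173, and Uqcr11 0.209 and 0.148. When arrays were left out, limma's adjusted p ranged from 0.00995 to 0.249 for Cox6c, 0.0761 to 0.360 for Ndufv1, 0.0609 to 0.358 for Ndufs7 and 0.0827 to 0.412 for Uqcr11. Uqcr11 lost its call without every single array except invasive replicate 3. Genes near 0 changed sign. Cox7a2l was 0.0847 with array weights, 0.0209 after scaling and 0.0043 after quantile normalization, and -0.0859 to 0.0967 without each array. Atp5j was -0.17 against 0 and -0.10 with the replicate block, and Ndufa7 was -0.0204 to 0.441 without each array.

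Spot brightness was not used here, so signal over background is not given, and with 3 PIN arrays small differences of single genes could not be resolved.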
